A study of Mus musculus with 12 samples.

Results

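The genes described here are 54 components of the machinery that copies DNA and of the enzymes that make its building blocks. They were a list of named genes, and each was read from the probe set that names only that gene and has the highest mean over the 12 arrays. All 54 had such a probe set, out of 19938 genes on the array, and all 54 also lay above the filter on low values that left 14953 genes for testing. They were sorted by role into origin licensing (9 genes), the CMG helicase (11), origin firing (6), the sliding clamp and its loader (6), polymerases and primase (8), single-strand binding and Okazaki maturation (5), nucleotide synthesis (5) and chromatin and DNA methylation at the fork (4). The arrays came from mouse plasma cells of the bone marrow, with 6 arrays of cells from wild-type donors and 6 of cells from Zbtb32-/- donors. In both groups the donors carried CD45.2 and were already immune to NP-CGG, a hapten on a carrier protein, and their splenocytes had been given to CD45.1 recipients that were then challenged with the antigen. On day 7 the cells were sorted as negative for B220, Ly6g, CD11b and CD45.1 and positive for CD138, CD45.2 and NP binding. The donor spleen was transferred as a mixture of cells, so every donor cell type of a graft shared the genotype. The labels give no strain, age or sex, no Zbtb32 genotype of the recipients, and not how many mice were pooled for an array. The series text calls the 6 arrays of a genotype biological replicates.

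A plasma cell that secretes antibody for a long time has left the cell cycle, whereas a plasmablast, its recently formed precursor, still divides. Before a cell can copy its genome, the origin recognition complex, Cdc6 and Cdt1 load rings of the Mcm proteins onto DNA, a step called licensing. In S phase the Dbf4-Cdc7 kinase and firing factors turn each ring into an active helicase with Cdc45 and the GINS complex, primase starts new strands, and the polymerases extend them while tethered to the Pcna clamp. Ribonucleotide reductase and thymidylate synthase supply the deoxynucleotides. Many genes of this machinery are transcribed together towards S phase under E2F transcription factors. Zbtb32 is a BTB zinc finger repressor, and the study set out to learn which transcripts of recall plasma cells differ in its absence.

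Array medians were alike (6.28 to 6.43 log2) and pairs of arrays correlated at 0.914 to 0.984. Averaged over its partners, the correlation was lowest for wild-type replicate 2 (0.933), followed by wild-type replicate 6 (0.938). The probe set of Zbtb32 itself read from 6.39 to 6.88 on the wild-type arrays and from 6.47 to 6.73 on the Zbtb32-/- arrays, a difference of -0.11 (SE 0.09, adjusted p = 0.932 by limma). The groups overlapped in it, and no source used here says whether its probes lie in the deleted stretch. It therefore does not check the labels, and every direction below rests on the genotypes as labelled. All 10 plasma cell markers were measured, with list means from 10.70 to 11.52 over the 12 arrays, and Jchain, which joins antibody chains into polymers, lay between 13.51 and 13.94. The number of arrays limits the precision of what follows.

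The sequences in front of these genes show a feature that the list was not chosen by. RefSeq promoter windows of assembly GRCm38.p6, from 250 bases before to 50 after the start of transcription, were held for 45 of the 54 genes. They were searched on both strands for 4 forms of the E2F motif (TTTCCCGC, TTTCGCGC, TTTGCCGC and TTTGGCGC). A form was found in the windows of 17 of the 45 genes (37.8%), against 704 of 27025 genes with a window (2.6%) and 482 of 11824 of the tested genes (4.08%). Licensing held 4 of them (Orc1, Orc3, Cdc6 and Cdt1) and the helicase 5 (Mcm3, Mcm5, Mcm6, Mcm7 and Gins3), while none of the 5 nucleotide synthesis genes had one. The other 8 were Topbp1, Rfc3, Pola1, Pold1, Pole2, Lig1, Uhrf1 and Dnmt1. Further replication and nucleotide synthesis genes, from lists drawn up beside the 54, had windows for 45 genes. A form was found in 9 of these, so the feature is not particular to the 54. To show what such a match looks like in each role, 30 bases around 1 match are given for 1 gene of each subgroup that had any, chosen after the matches were seen, 5′ to 3′ on the strand of the gene with the motif in capitals.
Orc1 (chr4:108579416-108579445, plus strand): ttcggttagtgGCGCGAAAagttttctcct
Mcm6 (chr1:128359797-128359826, minus strand): tggcgtatgctTTTGGCGCgaaaagtgcgt
Topbp1 (chr9:103305187-103305216, plus strand): ccgctcggttgGCGCGAAAgtcggttcccg
Rfc3 (chr5:151651200-151651229, minus strand): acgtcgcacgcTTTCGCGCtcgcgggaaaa
Pola1 (chrX:93632275-93632304, minus strand): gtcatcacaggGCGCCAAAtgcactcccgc
Lig1 (chr7:13278841-13278870, plus strand): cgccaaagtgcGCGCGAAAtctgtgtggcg
Uhrf1 (chr17:56304117-56304146, plus strand): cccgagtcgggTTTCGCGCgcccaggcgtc
The motif reads the same way as the gene in Mcm6, Rfc3 and Uhrf1 and from the opposite strand in the other 4 windows. In the Mcm6 stretch a form on the opposite strand overlaps the one in capitals, and in the Rfc3 stretch another form on the opposite strand is left in lower case.

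The stretch before the start site is shown next for the genes that had the smallest genotype p of their subgroup and a window in the table, since the values below turn on them. Capitals mark a match to an E2F form with or without its leading T, to a CCAAT box on either strand or to the CHR element TTTGAA, and each line holds 150 bases, 5′ to 3′ on the strand of the gene.
Cdc45 promoter (chr16:18811973-18812122, minus strand): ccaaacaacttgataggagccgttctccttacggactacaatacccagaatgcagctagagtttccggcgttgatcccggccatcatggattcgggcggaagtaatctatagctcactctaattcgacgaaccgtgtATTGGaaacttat
Rfc4 promoter (chr16:23127731-23127880, minus strand): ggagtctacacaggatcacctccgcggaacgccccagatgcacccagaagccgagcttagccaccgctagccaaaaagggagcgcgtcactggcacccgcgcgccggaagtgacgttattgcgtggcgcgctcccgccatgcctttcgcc
Pola2 promoter (chr19:5964207-5964356, minus strand): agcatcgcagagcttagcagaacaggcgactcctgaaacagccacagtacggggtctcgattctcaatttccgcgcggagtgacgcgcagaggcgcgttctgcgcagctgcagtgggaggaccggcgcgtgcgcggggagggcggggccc
Rpa3 promoter (chr6:8259142-8259291, minus strand): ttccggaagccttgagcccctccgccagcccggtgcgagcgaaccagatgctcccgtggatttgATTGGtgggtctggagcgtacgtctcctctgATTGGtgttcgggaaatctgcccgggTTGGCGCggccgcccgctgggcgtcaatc
Tyms promoter (chr5:30073626-30073775, minus strand): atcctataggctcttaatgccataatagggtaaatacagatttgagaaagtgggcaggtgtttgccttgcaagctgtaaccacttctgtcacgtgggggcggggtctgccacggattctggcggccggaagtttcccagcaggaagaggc
Chaf1b promoter (chr16:93883751-93883900, plus strand): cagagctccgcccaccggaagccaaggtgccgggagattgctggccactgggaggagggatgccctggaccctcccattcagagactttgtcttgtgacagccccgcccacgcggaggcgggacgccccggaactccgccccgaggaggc
None of these 6 stretches holds a full E2F form. The stretch of Rpa3 has the shorter form TTGGCGC and a pair of CCAAT boxes, that of Cdc45 has 1 CCAAT box close to the start, and the other 4 have no capital. The searched windows reach beyond these stretches. There Rfc4 has the shorter form TTCCCGC at 12 to 18, counted from the start, and Chaf1b has it at -227 to -221 and at 27 to 33. Cdc45 has another CCAAT box across the start, at -2 to 3, and TTTGAA at -240 to -235 and at 11 to 16. No window was held for Gmnn and Mtbp, which had the smallest p of licensing and of firing. Over all 45 windows, CCAAT was present in 27 (60.0%, against 41.1% of all genes with a window and of the tested genes alike). TTTGAA was present in 8 (17.8%), below the 20.2% of all genes with a window and above the 14.8% of the tested genes. Counting E2F forms without the leading T gave 29 of 45 (64.4%, against 10.9% of all genes with a window and 17.2% of the tested genes). Among the 45 further replication and nucleotide synthesis genes with a window, 20 had such a form. A match is a string of letters, and no binding was measured.

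No gene of the machinery passed the test between the genotypes, but most of them read higher on the Zbtb32-/- arrays. Each difference is the Zbtb32-/- mean minus the wild-type mean in log2 units, tested with limma, with p-values adjusted by the Benjamini-Hochberg method over all 14953 genes and a threshold of 0.05. The adjusted p of the 54 genes lay between 0.932 and 0.995, and 0 of 14953 genes passed at all (0.0%). At an unadjusted p under 0.05, 18 of the 54 genes (33.3%) had a positive difference and 0 a negative one, where 2.84% of all tested genes had a positive and 1.44% a negative difference at that level. The difference was above 0 in 50 of 54 genes (92.6%), against 52.9% of all tested genes, and its median was 0.28, against 0.01. Levels and differences went together across the array: the decile of tested genes with the highest level had a median difference of 0.13 and the lowest decile a median of -0.05. Of the 54 genes, 51 lay in the upper 5 deciles and 7 in the highest. In a fit to the 9969 genes above the 50th percentile, the median was 0.06 and 6402 differences were above 0. There 389 were positive at an unadjusted limma p under 0.05. That fit held 53 of the 54 genes, with a median of 0.29, 49 above 0 and 17 positive under that p. In a bulk sample, more replicating cells among those sorted and more of a transcript per cell cannot be told apart.

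**Figure D1:**
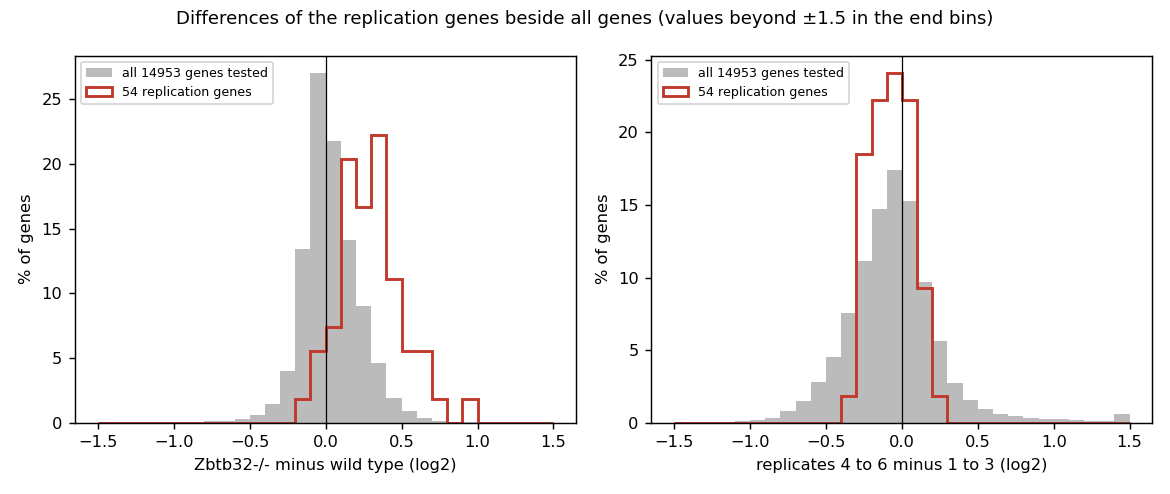
Share of genes (percent) by log2 difference, for the 54 replication genes (red outline) and all 14953 tested genes (grey); left, Zbtb32-/- minus wild type; right, replicates 4 to 6 minus replicates 1 to 3. The red outline lies to the right of the grey in the left panel, with medians of 0.28 and 0.01, and over its middle in the right panel, with medians of -0.06 for each.

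The individual intervals were wide. The 95% interval of a genotype difference reached 0.37 to either side in the median gene of the machinery and 0.31 in the median tested gene. It excluded a 2-fold difference in 46 of the 54 genes and a 1.5-fold difference in 20. Both counts bear on size only, and a p that misses the threshold does not show equal levels. The count of 18 also moved with single arrays. Taking out Zbtb32-/- replicate 3 left 9 such genes and taking out Zbtb32-/- replicate 4 left 10, while the other arrays left between 13 and 21. The count over all 14953 tested genes moved too, from 425 to 296 and 313 without those arrays and to 274 to 954 without another. Without wild-type replicates 2 and 6 together the count was 8 of the 54 genes and 208 of all tested genes. In that setting 48 of 54 differences were above 0, with a median of 0.21. Leaving out any 1 array moved the difference by no more than 1.5 times in 24 of the 54 genes. In the other 30 at least 1 array moved it by more, and in 10 of these at least 1 turned its sign. Wild-type replicate 2 did so most often, moving 22 genes, 6 of them to the other sign, and the other arrays moved 4 to 11 each. Genes moved or turned were not counted over all tested genes, so these numbers do not show a trait of the 54.

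**Figure D2:**
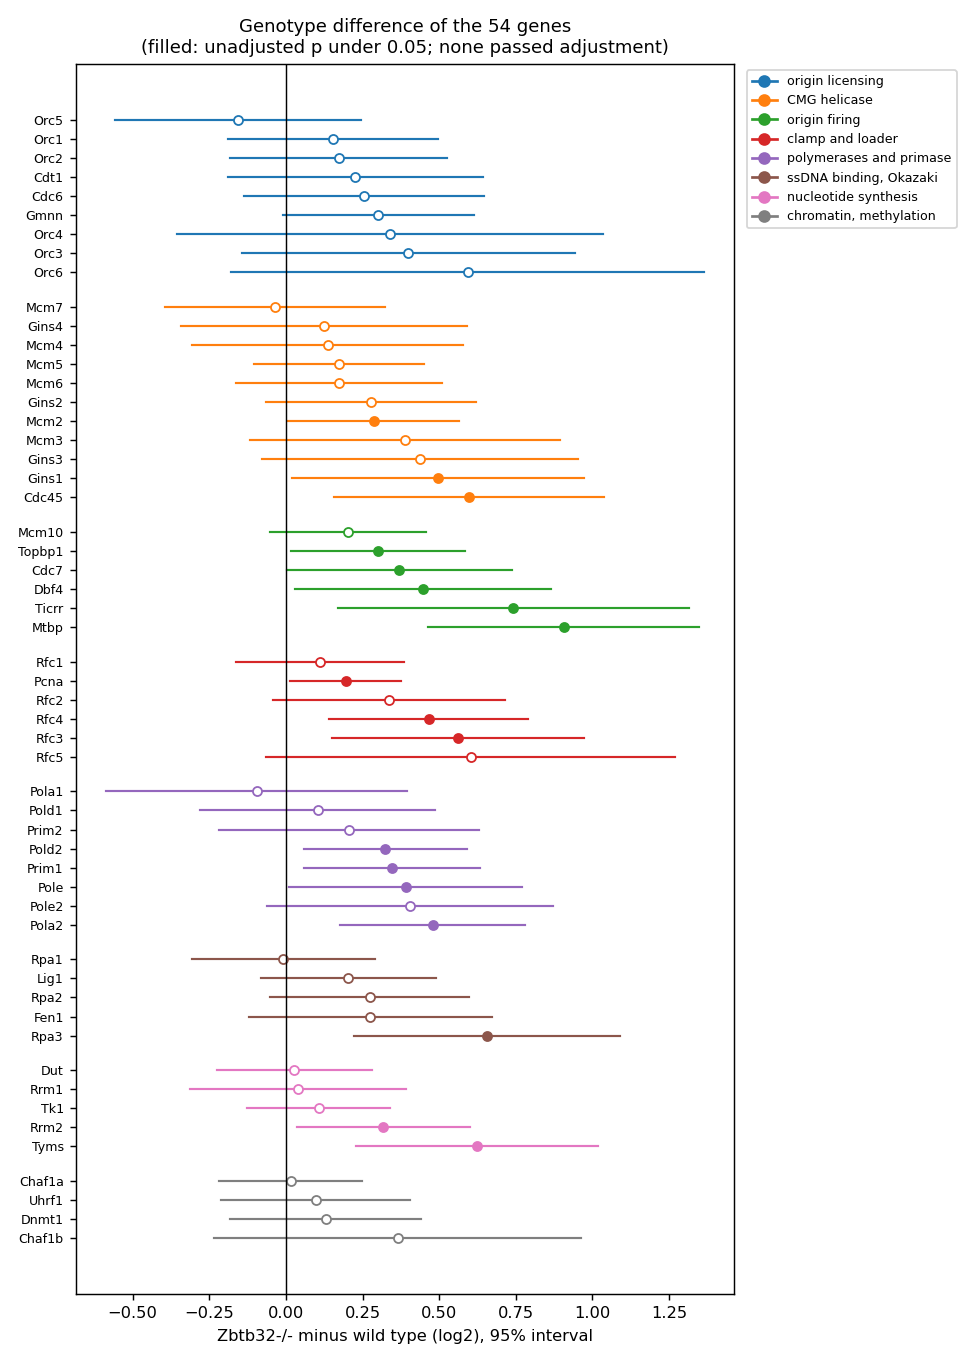
Difference of each of the 54 genes (log2, Zbtb32-/- minus wild type) with its 95% interval, sorted within subgroups by colour; filled points have an unadjusted p under 0.05. Points lie right of 0 for 50 genes, and the firing factors Mtbp (0.91) and Ticrr (0.74) lie farthest out.

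Averaged over each subgroup on each array, every subgroup had a higher mean in the Zbtb32-/- group, by 0.15 to 0.50. The mean over all 54 genes was 8.45 ± 0.20 on the wild-type arrays and 8.74 ± 0.13 on the Zbtb32-/- arrays (SD, n = 6 each), a difference of 0.29 (SE over arrays 0.10). Wild-type arrays ran from 8.16 in replicate 2 to 8.76 in replicate 3, and Zbtb32-/- arrays from 8.54 in replicate 6 to 8.91 in replicate 4. The groups overlapped, because wild-type replicate 3 read as high as most Zbtb32-/- arrays. Of the 8 differences between means, origin firing had the largest, at 0.50, and chromatin and methylation the smallest, at 0.15. By the median over genes nucleotide synthesis was the lowest, at 0.107 against 0.114 for chromatin and methylation, and over replicates 1 to 3 its mean was the lowest as well, at 0.13. Whether the subgroups differ from one another was not tested, since the genes were listed and the subgroups drawn with earlier results known.

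**Figure D3:**
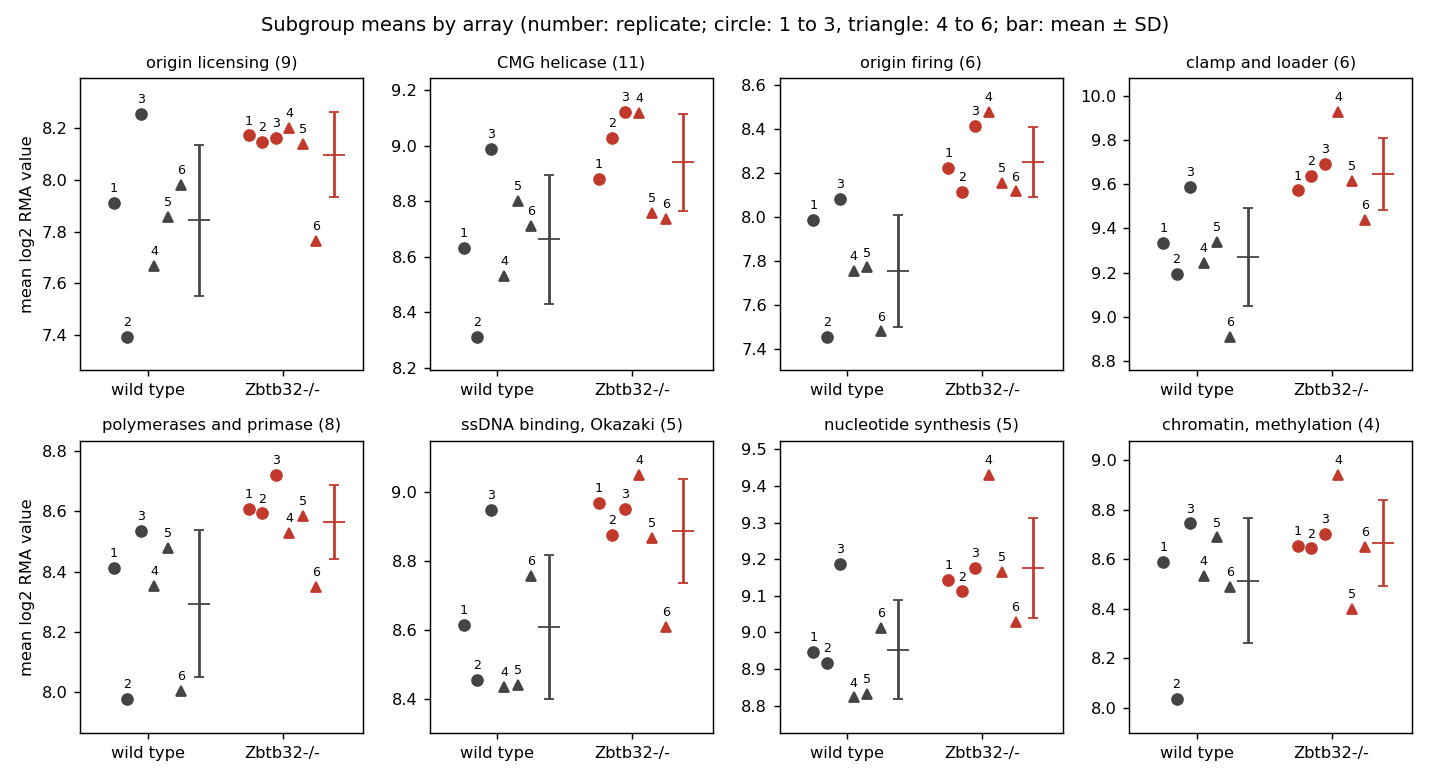
Mean log2 value of each subgroup on each array (8 panels, number of genes in parentheses, each with its own vertical scale), wild type in grey and Zbtb32-/- in red, labelled by replicate, with mean ± SD. In the firing panel every Zbtb32-/- array (8.11 to 8.48) lies above every wild-type array (7.45 to 8.08); in the other 7 panels the groups overlap.

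Among the 9 licensing genes, which mark origins before S phase, 8 differences were above 0 and 0 had an unadjusted p under 0.05. Their mean was 7.84 ± 0.29 in wild type and 8.10 ± 0.16 in Zbtb32-/- (SD, n = 6 each), a difference of 0.25 (SE 0.14) that was 0.16 without wild-type replicate 2. Geminin (Gmnn) holds Cdt1 back so that no origin is licensed again within a cycle. Its wild-type arrays read 7.61 at the lowest, 7.76 at the median and 8.11 at the highest, and its Zbtb32-/- arrays 7.68, 8.23 and 8.37. The difference was 0.30 (SE 0.15, 95% interval -0.01 to 0.61), and 4 of the 6 Zbtb32-/- arrays lay above every wild-type array. Orc6 is the smallest subunit of the origin recognition complex. Wild-type arrays ran from 6.27 over a median of 8.32 to 8.85 for it, and Zbtb32-/- arrays from 8.35 over 8.62 to 9.32. Wild-type replicate 2 alone supplied the low end, and the difference of 0.59 (SE 0.36, 95% interval -0.18 to 1.36) became 0.22 without that array. Orc5, another subunit of the complex, was the only licensing gene on the negative side at -0.16 (SE 0.19), and wild-type replicate 2 was there the highest array; without it the difference was 0.02. The differences of Orc1, Orc2, Orc3, Orc4, Cdc6 and Cdt1 lay between 0.15 and 0.40, and each leaned on single arrays. Without wild-type replicate 2 the difference of Orc2 went from 0.17 to 0.05, of Orc3 from 0.40 to 0.20, of Cdc6 from 0.25 to 0.10 and of Cdt1 from 0.23 to 0.08. Orc4 differed by 0.34, but by 0.02 without wild-type replicate 4, its low array. Orc1 differed by 0.15, with 0.04 when replicate 5 of Zbtb32-/- was left out and 0.27 when its replicate 6 was.

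The helicase genes gave 10 of 11 differences above 0 and 3 with an unadjusted p under 0.05, which were Cdc45, Gins1 and Mcm2. The mean of the 11 was 8.66 ± 0.23 in wild type and 8.94 ± 0.17 in Zbtb32-/- (SD, n = 6 each), and the difference was 0.28 (SE 0.12). Cdc45 joins the Mcm ring when it becomes active. It read 8.35, 8.95 and 9.49 in wild type (lowest, median and highest) and 9.18, 9.47 and 10.27 in Zbtb32-/-, with replicate 4 of the latter well above the rest. The difference was 0.60 (SE 0.21, 95% interval 0.16 to 1.04), with 5 wild-type arrays below every Zbtb32-/- array. Gins1 belongs to the GINS complex that holds Cdc45 on the ring. Its wild-type values were 7.69, 7.93 and 8.95 and its Zbtb32-/- values 8.15, 8.68 and 8.98, so the ranges ended at the same height while the medians stood apart. The difference was 0.50 (SE 0.22, 95% interval 0.02 to 0.97) and 0.41 without wild-type replicate 2, where its unadjusted p was no longer under 0.05.

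Of the 6 subunits of the Mcm ring, which load as a unit, 5 had a positive difference and 1 a negative one. Mcm2 differed by 0.29 (SE 0.13, 95% interval 0.01 to 0.57). Mcm3, Mcm4, Mcm5 and Mcm6 differed by 0.39, 0.14, 0.17 and 0.17, and Mcm7 by -0.03 (SE 0.17). Mcm3 had its lowest value, 7.34, on wild-type replicate 2, and without that array its difference was 0.15. Without the same array the difference of Mcm4 was -0.05 and that of Mcm6 0.06. The sign of Mcm7 turned on several arrays, with -0.13 to 0.07 when 1 was left out. Of the other GINS genes, Gins2 differed by 0.28, Gins3 by 0.44 and Gins4 by 0.12, the last being -0.04 without wild-type replicate 4.

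Origin firing was the subgroup with the largest mean difference, in a sorting made with earlier results known. All 6 of its differences were above 0. An unadjusted p under 0.05 was found in 5 of the 6, where 2.84% of all tested genes had a positive difference at that level. The mean of the 6 was 7.75 ± 0.26 in wild type and 8.25 ± 0.16 in Zbtb32-/- (SD, n = 6 each), a difference of 0.50 (SE 0.12). Leaving out wild-type replicate 2 gave 0.44, and leaving out wild-type replicates 2 and 6 gave 0.35. Mtbp works with Ticrr (treslin) in handing Cdc45 to loaded Mcm rings. Its wild-type arrays read 6.10 at the lowest, 6.61 at the median and 7.27 at the highest, and its Zbtb32-/- arrays 7.39, 7.48 and 8.04. All 6 Zbtb32-/- arrays lay above all 6 wild-type arrays, and 0.0803% of all tested genes were separated that way. The difference was 0.91 (SE 0.21, 95% interval 0.46 to 1.35, adjusted p = 0.932), and leaving out 1 array at a time gave 0.78 to 1.02. Ticrr itself read 6.15, 7.59 and 7.94 in wild type and 7.74, 8.22 and 8.39 in Zbtb32-/-. Its low end was again wild-type replicate 2, and the difference of 0.74 (SE 0.27, 95% interval 0.17 to 1.31) was 0.50 without that array.

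The kinase that switches on the ring showed the same sign in both of its chains. Dbf4, its activating subunit, differed by 0.45 (SE 0.19), and Cdc7, its catalytic subunit, by 0.37 (SE 0.17). Cdc7 read 6.15 on wild-type replicate 2 and 7.02 or more on the other wild-type arrays, and without replicate 2 its difference was 0.21 and its unadjusted p no longer under 0.05. Topbp1, a scaffold for firing and for checkpoint signalling, differed by 0.30 (SE 0.13). Mcm10, which helps the active helicase leave the origin, differed by 0.20 (SE 0.12) and was the 1 gene of the subgroup with an unadjusted p above 0.05.

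Pcna, the ring that keeps polymerases on DNA, and the 5 subunits of replication factor C that load it all had positive differences, 3 of 6 with an unadjusted p under 0.05. The mean was 9.27 ± 0.22 in wild type and 9.65 ± 0.16 in Zbtb32-/- (SD, n = 6 each), a difference of 0.38 (SE 0.11). Rfc4 read 9.08, 9.21 and 9.68 in wild type and 9.26, 9.73 and 10.06 in Zbtb32-/-. All but 1 of the Zbtb32-/- arrays exceeded the wild-type maximum, and the difference was 0.47 (SE 0.15, 95% interval 0.14 to 0.79). Rfc3, a small subunit of the same loader, read 8.02, 8.60 and 9.31 in wild type and 8.93, 9.11 and 9.59 in Zbtb32-/-. Only wild-type replicate 3 reached into the Zbtb32-/- range, and the difference was 0.56 (SE 0.19, 95% interval 0.15 to 0.97). Pcna differed by 0.20 (SE 0.08) and by 0.12 without wild-type replicate 2, where its unadjusted p was above 0.05; its second probe set gave 0.20 as well. Rfc5 differed by 0.60 (SE 0.31), with wild-type replicate 6 at 7.31 and the other wild-type arrays at 9.06 or more; without replicate 6 the difference was 0.29. Rfc2 differed by 0.34 and Rfc1, the large subunit, by 0.11, which was 0.04 without wild-type replicate 6.

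Of the 8 polymerase and primase genes, 7 differences were above 0 and 4 had an unadjusted p under 0.05. Their mean was 8.29 ± 0.24 in wild type and 8.56 ± 0.12 in Zbtb32-/- (SD, n = 6 each), a difference of 0.27 (SE 0.11) that was 0.12 without wild-type replicates 2 and 6. Pola2 is the regulatory subunit of polymerase alpha, the enzyme that extends the primer. It read 8.44, 8.91 and 9.19 in wild type and 9.13, 9.35 and 9.44 in Zbtb32-/-, a difference of 0.48 (SE 0.14, 95% interval 0.18 to 0.78). The groups overlapped by 1 wild-type array. Pold2, a subunit of polymerase delta, which copies the lagging strand, read 9.61, 9.90 and 10.27 in wild type and 9.92, 10.27 and 10.38 in Zbtb32-/-. The difference was 0.32 (SE 0.12, 95% interval 0.06 to 0.59), and 3 of the Zbtb32-/- arrays lay above every wild-type array. Prim1, the catalytic subunit of primase, differed by 0.34 (SE 0.13), and Pole, the catalytic subunit of the leading strand polymerase, by 0.39 (SE 0.18). Without wild-type replicate 2 the difference of Pole was 0.27 and its unadjusted p above 0.05. Pola1, the catalytic subunit of polymerase alpha, stood on the other side of 0 at -0.10 (SE 0.23), its wild-type arrays spread from 6.69 to 8.33, and without wild-type replicate 2 its difference was 0.03. Pold1, Prim2 and Pole2 differed by 0.10, 0.21 and 0.41. Without wild-type replicate 2 these 3 were -0.05, 0.07 and 0.22.

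The single-strand binding protein has 3 subunits, with differences of -0.01, 0.27 and 0.66 that were not tested against one another. Rpa3, the smallest, read 8.21, 8.80 and 9.45 in wild type and 9.03, 9.40 and 9.99 in Zbtb32-/-. The difference was 0.66 (SE 0.20, 95% interval 0.22 to 1.09), and 5 wild-type arrays lay below every Zbtb32-/- array. A second probe set of Rpa3 gave a smaller difference of the same sign, 0.33, and followed the first across arrays with a correlation of 0.941. Rpa2 read 8.29, 8.57 and 8.84 in wild type and 8.38, 8.90 and 9.15 in Zbtb32-/-, a difference of 0.27 (SE 0.15, 95% interval -0.05 to 0.60) with overlapping groups. Rpa1, the large subunit, differed by -0.01 (SE 0.14), and by -0.07 to 0.07 when 1 array was left out. Fen1, which trims the flaps of Okazaki fragments, and Lig1, which seals them, differed by 0.28 and 0.20, and Fen1 by 0.17 without wild-type replicate 4. The mean over these 5 genes was 8.61 ± 0.21 in wild type and 8.89 ± 0.15 in Zbtb32-/- (SD, n = 6 each), a difference of 0.28 (SE 0.11).

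In nucleotide synthesis all 5 differences were above 0, and Tyms and Rrm2 had an unadjusted p under 0.05. The mean was 8.95 ± 0.13 in wild type and 9.18 ± 0.14 in Zbtb32-/- (SD, n = 6 each), a difference of 0.22 (SE 0.08). Tyms makes thymidylate from deoxyuridylate. It read 8.52 at the lowest, 9.33 at the median and 9.63 at the highest in wild type and 9.67, 9.74 and 10.28 in Zbtb32-/-, so that the groups did not overlap. The difference was 0.62 (SE 0.18, 95% interval 0.23 to 1.02), or 1.54-fold. Tyms and Mtbp were the 2 of 54 genes without overlap. Rrm2, the subunit that limits ribonucleotide reductase, read 9.70, 10.10 and 10.30 in wild type and 10.11, 10.42 and 10.60 in Zbtb32-/-, a difference of 0.32 (SE 0.13, 95% interval 0.04 to 0.60) that was 0.29 without wild-type replicate 2, with an unadjusted p above 0.05. Its partner Rrm1 differed by 0.04 (SE 0.16), and Dut, which clears deoxyuridine triphosphate, by 0.03 (SE 0.12). Leaving out 1 array gave -0.05 to 0.13 for Rrm1 and -0.01 to 0.09 for Dut, so neither sign held. Tk1, the salvage thymidine kinase, differed by 0.11 with the probe set used and by 0.01 with a second one.

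Among the 4 genes that restore chromatin and methylation behind the fork, all 4 differences were above 0 and 0 had an unadjusted p under 0.05. Their mean was 8.51 ± 0.25 in wild type and 8.67 ± 0.17 in Zbtb32-/- (SD, n = 6 each), and the difference of 0.15 (SE 0.12) was 0.06 without wild-type replicate 2. Removing replicate 4 of Zbtb32-/- instead gave 0.10. Chaf1b, a subunit of the histone chaperone CAF-1, read 6.41, 7.99 and 8.24 in wild type and 7.55, 8.11 and 8.62 in Zbtb32-/-. Wild-type replicate 2 was far below the rest, and the difference of 0.37 (SE 0.28, 95% interval -0.23 to 0.96) became 0.10 without it. Dnmt1, the methyltransferase that copies methylation onto the new strand, read 8.79, 9.07 and 9.27 in wild type and 8.92, 9.13 and 9.67 in Zbtb32-/-, a difference of 0.13 (SE 0.15, 95% interval -0.18 to 0.44). Removing wild-type replicate 2 gave 0.08 and removing Zbtb32-/- replicate 4 gave 0.03. Uhrf1, which brings Dnmt1 to hemimethylated DNA, differed by 0.10, or 0.02 without wild-type replicate 2, and Chaf1a by 0.02, or -0.04 without Zbtb32-/- replicate 3.

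Read against the promoter windows, the genes with a full E2F form had the smaller median difference. The 17 genes with a form had a median difference of 0.20 and 2 had an unadjusted p under 0.05, while the 28 genes without one had a median of 0.32 and 13 at that level. With the forms that lack the leading T the medians lay closer, at 0.27 in the 29 genes with one, 7 of them at that level, and 0.31 in the 16 without, 8 of them at that level. Genes without a window are outside these counts, among them Mtbp, Gins1 and Pole, each with an unadjusted p under 0.05. Both comparisons are descriptions without a test.

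Single arrays carried much of the spread. Wild-type replicate 2 was the lowest of all 12 arrays in 20 of the 54 genes, and wild-type replicates 4 and 6 were lowest in 12 genes each. At the other end Zbtb32-/- replicate 4 was highest in 21 genes and Zbtb32-/- replicate 3 in 11. In all, the lowest array was a wild-type one in 49 genes and the highest a Zbtb32-/- one in 42. These counts of lowest and highest arrays were not made over all tested genes, so they do not show a trait of the 54 genes. The wild-type arrays spread more than the Zbtb32-/- arrays in 41 of the 54 genes, with median SDs of 0.36 and 0.23, and 69.9% of all tested genes also had the larger SD in wild type (medians 0.26 and 0.21). Without wild-type replicate 2 the wild-type spread was still the larger in 39 genes. That array was not low throughout: in Orc5, Mcm10, Pola1 and Chaf1a it was the highest of the wild-type arrays.

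**Figure D4:**
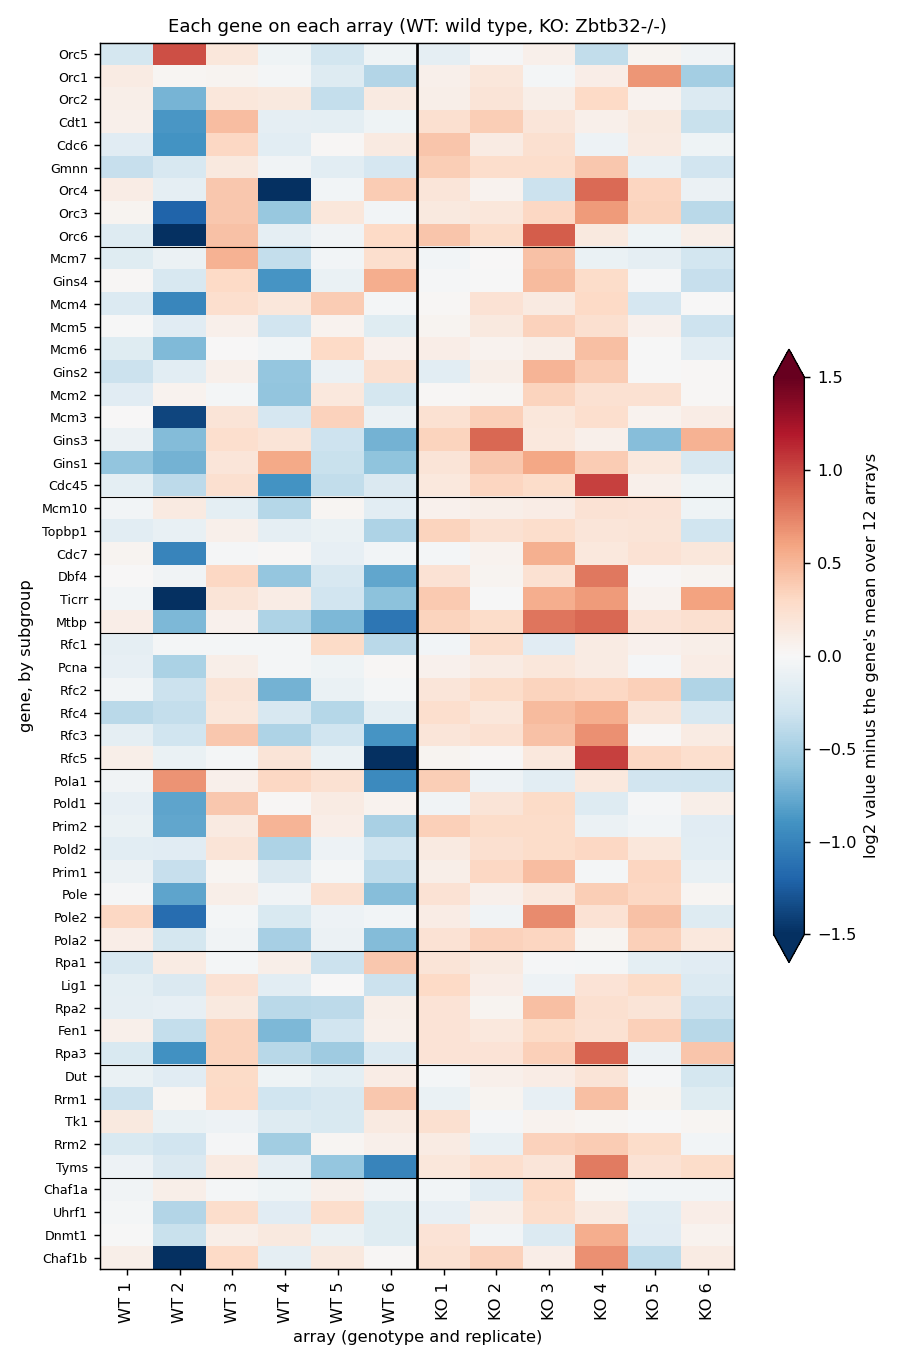
Log2 value of each of the 54 genes (rows, by subgroup) on each array (columns) minus the mean of the gene over 12 arrays, blue for lower and red for higher, with the colour scale ending at ±1.5. The column of wild-type replicate 2 is blue in most rows and red in Orc5 and Pola1, and that of Zbtb32-/- replicate 4 has the most dark red cells.

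Earlier results of these data split the arrays by replicate number into 1 to 3 and 4 to 6, which the labels do not explain, and each set holds 3 arrays of each genotype. The machinery did not follow that split at the threshold. With genotype in the model, 0 of the 54 genes passed the limma test between sets, and 0 had an unadjusted p under 0.05 in either direction, although 965 of 14953 genes passed (6.45%) and 25.9% of all tested genes had an unadjusted p under 0.05. The number that passed moved in both directions when 1 array was left out. Leaving out replicate 1, 3, 4 or 5 of wild type or 1, 2, 3 or 6 of Zbtb32-/- gave 238 to 536. Dropping wild-type replicate 6 gave 703 and dropping wild-type replicate 2 gave 937. The number rose to 1162 when Zbtb32-/- replicate 4 was dropped and to 1190 when Zbtb32-/- replicate 5 was. At an unadjusted limma p under 0.05, such removals left 973 to 1302 positive and 2272 to 2809 negative genes, against 1198 and 2674. With the mean of markers of other cells as a covariate, 34 genes passed. Replicates 4 to 6 minus 1 to 3 gave differences above 0 in 18 of the 54 genes, against 38.7% of all tested genes, with a median of -0.06 in both. That likeness held for the values as deposited: after renewed quantile normalization 29 of the 54 were above 0, with medians of 0.01 for them and -0.07 for all genes, and without wild-type replicate 2 it was 6, with medians of -0.13 and -0.07. The 54 differences ran from -0.30 for Mtbp to 0.20 for Mcm6. Their 95% intervals excluded a 2-fold difference in all 54 genes and a 1.5-fold difference in 37. The gene with the smallest p was Pola2, at -0.22 (SE 0.13, adjusted p = 0.280). In the other subgroups the leading genes were Orc5 (-0.26), Mcm7 (-0.22), Topbp1 (-0.21), Rfc3 (-0.27), Rpa2 (-0.20), Tyms (-0.14) and Dnmt1 (0.10).

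The sign of the genotype difference was mostly shared by the replicate sets. Over replicates 1 to 3 the difference was above 0 in 50 genes with a median of 0.29, and over replicates 4 to 6 in 45 genes with a median of 0.24; 42 genes were above 0 in both. Taken alone, each set of 3 against 3 arrays gave 8 of the 54 genes a positive difference at an unadjusted p under 0.05. Of the 14953 tested genes, 183 had one in replicates 1 to 3 and 668 in replicates 4 to 6, so the equal counts stood against unequal backgrounds. The helicase mean differed by 0.37 in the first set and 0.19 in the second, the clamp and loader mean by 0.26 and 0.50, and the nucleotide synthesis mean by 0.13 and 0.32. When the difference between the sets was tested gene by gene as an interaction, 0 of 54 genes passed (0.0% of all tested genes, smallest adjusted limma p of the 54 genes 0.998). At an unadjusted p under 0.05, 2 of 54 genes had a positive interaction, against 2.48% of all tested genes, and 0 a negative one, against 1.39%. For Tyms the genotype difference was 0.26 in the first set and 0.99 in the second (interaction 0.74, SE 0.31). For Dbf4 it was 0.08 and 0.82 (interaction 0.74, SE 0.32), and for Prim2, the second primase subunit, 0.55 and -0.14 (interaction -0.69, SE 0.37), the third smallest p but above 0.05. The count of 2 was 0 when replicate 3 of wild type, or any of replicates 1 to 4 of Zbtb32-/-, was left out.

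Other genes of the same pathways, from lists drawn up beside the 54, also had mostly positive genotype differences, and none passed between genotypes. Over all tested genes, 52.9% of genotype differences were above 0 and 2.84% were positive at an unadjusted p under 0.05. All genes counted at that level between genotypes in the lists below were positive. Of 30 further replication genes, 27 differences were above 0, the median was 0.21, 5 had an unadjusted p under 0.05 and 0 passed. Mcm8, a helicase of recombination, differed by 0.35 (SE 0.12), Asf1b, a histone chaperone, by 0.46 (SE 0.17) and Timeless, a fork protection factor, by 0.37 (SE 0.15). Of 24 further nucleotide synthesis genes measured out of 26, 19 differences were above 0, the median was 0.19, 3 had an unadjusted p under 0.05 and 0 passed. These 3 were Dtymk, the thymidylate kinase, at 0.41 (SE 0.17), Ctps, the CTP synthase, at 0.54 (SE 0.23), and Nme1, a nucleoside diphosphate kinase, at 0.20 (SE 0.09). Between replicate sets 1 of these genes passed, Lrwd1, which associates with the origin recognition complex, at -0.39 (adjusted p = 0.0412 by limma). At an unadjusted p under 0.05 there were 2 of the 30 replication genes and 6 of the 24 nucleotide synthesis genes between sets, against 25.9% of all tested genes. Markers of cell division had the same sign: all 9 measured had a positive difference, with a median of 0.25, 4 had an unadjusted p under 0.05 and 0 passed. Among them Birc5, a subunit of the chromosomal passenger complex, differed by 0.45 (SE 0.16) and Mki67, the proliferation marker, by 0.20 (SE 0.08). The mean of the division list was 9.88 ± 0.23 on wild-type arrays and 10.15 ± 0.11 on Zbtb32-/- arrays (SD, n = 6 each).

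Markers of other cells were present in spite of the sort and varied between arrays. The genotype difference was above 0 in 12 of 12 neutrophil genes, against 52.9% of all tested genes. The mean of that list ran from 8.12 to 11.05 on wild-type arrays and from 9.12 to 12.31 on Zbtb32-/- arrays. The difference of this mean was 0.36 (SE 0.63) and -0.04 without wild-type replicate 2. In the erythroid list 9 of 10 genes measured had a genotype difference above 0, with list means of 6.10 to 7.76 and 6.71 to 7.42. Wild-type replicate 2 had the lowest erythroid, neutrophil, monocyte and macrophage, B cell and replication means. Its plasma cell mean was 11.42, in a wild-type range of 10.70 to 11.50. Wild-type replicate 3 had the highest erythroid and the highest wild-type replication mean. The genotype difference was above 0 in 2 of 9 B cell markers (list means 7.18 to 8.50 and 7.44 to 8.08) and in 1 of 8 monocyte and macrophage markers (6.60 to 8.38 and 6.82 to 8.08). It was above 0 in 1 of 8 T and NK cell markers tested (5.74 to 6.78 and 5.70 to 6.17), with Ncr1 and Klrb1c below the filter on low values. Unlike these differences, RMA levels have no 0. With the erythroid mean as a covariate, 48 of the 54 replication genes had a genotype difference above 0 and the median was 0.24. In that fit 11 had a positive difference at an unadjusted p under 0.05 (201 of all tested genes did). With the mean of the myeloid, erythroid, T and NK lists together as a covariate, 50 had a difference above 0 and the median was 0.30. There 19 had a positive difference at an unadjusted p under 0.05 (559 of all tested genes did). Between replicate sets the plasma cell list was lower in replicates 4 to 6 in 10 of 10 genes, 4 of which passed, and the neutrophil list higher in 12 of 12, of which 4 passed, beside the 0 of 54 of the replication genes. Of all tested genes 6.45% passed between sets.

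**Figure D5:**
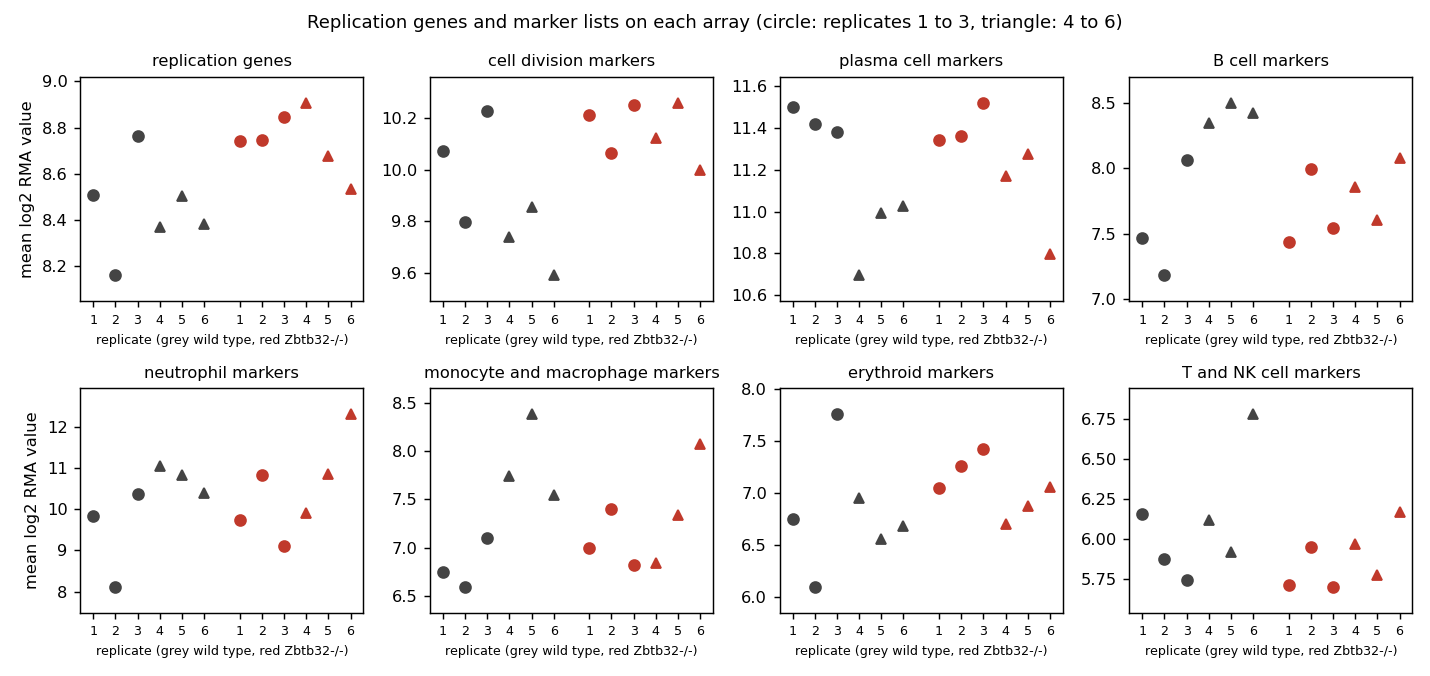
Mean log2 value on each array of the 54 replication genes and of 7 marker lists (8 panels, each with its own vertical scale), wild type in grey, Zbtb32-/- in red, circles for replicates 1 to 3 and triangles for 4 to 6. Neutrophil means range from 8.12 to 12.31 and replication means from 8.16 to 8.91, and wild-type replicate 2 is lowest in both of these panels.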

How the data were processed

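The 12 samples, 6 per genotype, were each run on 1 Affymetrix mouse array. The authors deposited 1 log2 value for each probe set and array; the submitters' processing notes name Affymetrix Expression Console and RMA without a version. RMA makes the arrays' distributions alike, so it hides differences in total RNA and compresses low values. Of 35556 probe sets, 21789 name 1 gene, 1621 several and 12146 are unnamed here. Of the 21789, 21698 carry an Entrez identifier that matched a RefSeq gene table. A gene entered the tests when its mean exceeded the 25th percentile, 5.50 log2. Tests used limma 3.58.1 in R 4.3.3 (lmFit, eBayes with trend, two-sided) over 14953 genes with Benjamini-Hochberg adjustment, and were tested on simulated data. Terms were genotype, or genotype with replicate set and their interaction. The error of a subgroup difference is the standard error over arrays. The members, lists, subgroups and replicate sets were chosen with earlier results of these data known, and no score over members was given a p.

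Named with values are genes with an unadjusted genotype p under 0.05, a negative difference or the 2 smallest p of a subgroup, and for replicate set and interaction those with the smallest p; other subgroup members are given by difference. Promoters are RefSeq windows of GRCm38.p6; the deposited table names no build. Alternatives were renewed quantile normalization, median centring, other filters, averaged probe sets, eBayes without trend or with robust variances, array weights, blocks, covariates, each replicate set alone and arrays left out. Tables and plots used Python 3.11.15, pandas 2.3.3 and matplotlib 3.10.9.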

Additional observations from a re-analysis of the deposited data

Results flagged for a closer look

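Within each group of 6 arrays, the gap between the highest or lowest array and its nearest neighbour was divided by the range of the group and set against Dixon's 95% value. Of 126 groups (54 genes and 9 means in each genotype), 20 stood out, and for independent groups chance flags about 1 in 20. The groups share the same arrays, and the means are made of the same genes. Such flags were not counted over all tested genes, so the 20 do not show a trait of the 54 genes. Wild-type replicate 2 accounted for 7 of the 20, in 6 of them as the lowest array. It was lowest in Orc6 (ratio 0.756), Mcm3 (0.651), Cdc7 (0.842), Pole2 (0.63), Chaf1b (0.762) and the mean of chromatin and DNA methylation at the fork (0.64), and highest in Orc5 (0.64). Wild-type replicate 4 was apart in Orc4 (0.75, at 6.08 with the next array at 7.70) and wild-type replicate 6 in Rfc5 (0.856).

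Among the Zbtb32-/- arrays, replicate 4 was the highest in Cdc45 (0.641), Dbf4 (0.722), Rfc5 (0.714), Tyms (0.819), Rrm1 (0.655) and the nucleotide synthesis mean (0.631, at 9.43 with the next array at 9.18). Replicate 6 was the lowest in Topbp1 (0.753), Rfc2 (0.788), Fen1 (0.738) and the origin licensing mean (0.861, at 7.76 with the next array at 8.14). Its mean over markers of neutrophils, monocytes, erythroid cells and T and NK cells was 8.40, the highest of the 12 arrays. Replicate 1 was the highest in Tk1 (0.702).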

How the results depend on the processing

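None of the 54 genes passed the adjusted threshold between genotypes in 27 alternative settings, between replicate sets in 23 or for the interaction in the 17 in which it was run (renewed normalization, median centring, other filters and arrays left out). The smallest adjusted limma p of the genes between genotypes was 0.521, without wild-type replicate 3. The count of genes with a positive genotype difference at an unadjusted p under 0.05, 18, was 11 with renewed quantile normalization, 8 in replicates 1 to 3, 8 in replicates 4 to 6, 11 with the erythroid covariate, 8 without wild-type replicates 2 and 6 and 9 to 21 with 1 array left out. Over all tested genes the same count, 425, was 374, 183, 668, 201 and 208 in these settings and 274 to 954 with 1 array left out. The median difference of the 54 genes lay between 0.21 and 0.36 throughout. The 27 genes named for genotype had been picked by the genotype result itself, so their signs are not a measure of all 54. Outside the 27, Mcm4, Gins4, Pold1, Rrm1, Dut and Chaf1a turned sign when 1 array was left out. Within the 27, 23 kept their sign in every setting. Reversals were Mcm7 (0.049 in replicates 1 to 3; -0.13 to 0.067 with 1 array left out), Orc5 (0.0044 in replicates 4 to 6, 0.028 without wild-type replicates 2 and 6; -0.23 to 0.020), Pola1 (0.012 with array weights; -0.30 to 0.031) and Rpa1 (0.016 with median centring, 0.095 with array weights, 0.15 in replicates 1 to 3, 0.12 without wild-type replicates 2 and 6; -0.074 to 0.071); the cause was not tested. Between replicate sets the count of 0 was 1 positive with renewed normalization, 1 negative with the covariate of other cells, 1 positive with the erythroid covariate, 2 negative without wild-type replicates 2 and 6 and 0 to 3 negative with 1 array left out. For the interaction it was 1 positive with renewed normalization, 1 positive and 1 negative without wild-type replicates 2 and 6, and 0 to 3 positive and 0 to 6 negative with 1 array left out. The E2F forms without the leading T were found in 29 windows.

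Arrays with the same replicate number did not deviate together in every case (correlations 0.468, 0.0189, 0.220, 0.0336, 0.135 and 0.156 for numbers 1 to 6), so the numbers were not taken to pair the arrays. With the replicate number as a block, 20 genes had a positive difference at an unadjusted p under 0.05 (645 of 14953 tested genes did, against 425 without the block), the median was 0.28 and the smallest adjusted p was 0.792. The wild-type array closest to its own number was found for numbers 1 and 6 only. The 6 arrays per genotype leave intervals that admit a 1.5-fold difference in most genes.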
